A study of Rattus norvegicus with 20 samples.

Results

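Muscle builds most sarcomere proteins from isoforms that differ between slow, fatigue-resistant fibres and fast fibres, and 10 genes of this kind were followed here. The slow isoforms were the troponin subunits Tnni1 and Tnnt1, the tropomyosin Tpm3 and the myosin light chains Myl2 and Myl3. Their fast counterparts were Tnni2, Tnnt3, Tpm1, Myl1 and Mylpf. A probe set was a member when the array's annotation gave it exactly one gene symbol and that symbol was one of the 10. Of the 10 genes 8 had a probe set, 4 slow and 4 fast, among 4737 genes named in this way on the array. They were read by 18 probe sets of 8799, 10 for slow and 8 for fast genes. No probe set carried the symbol Tnnt1 or Mylpf. The RefSeq gene table lists Mylpf as an older name of Myl11, which has 2 probe sets, and these are described beside the members without being counted among them. After a filter on dim signals, 15 of the 18 members were tested among 6027 probe sets.

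The study hybridised messenger RNA from rat rear leg muscle to 20 Affymetrix arrays, in 4 groups of 5. The groups were muscle of normal rats, muscle of diabetic rats, muscle of diabetic rats given vanadyl sulfate, and muscle of normal rats given vanadyl sulfate. Vanadyl sulfate is a vanadium salt known for insulin-like effects and for the inhibition of tyrosine phosphatases by vanadium compounds. The way diabetes was produced, the strain, sex and age of the rats, the dose and length of treatment, and the leg muscle sampled are not stated in the sources at hand. Whether the 5 replicates of a group are separate rats is not stated either, so p-values measure the spread between these samples, which may be technical.

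In the thin filament, tropomyosin lies along actin and blocks the sites to which myosin binds. Troponin T anchors the troponin complex to tropomyosin, troponin I holds the filament in the blocked state, and calcium binding to troponin C releases it. Light chains wrap the lever arm of the myosin head, an essential chain (Myl3 in slow fibres, Myl1 in fast ones) and a regulatory chain (Myl2 in slow fibres, Mylpf in fast ones). In the rat leg the soleus is mostly slow and the larger superficial muscles are mostly fast. Myl2 and Myl3 are also the light chains of the heart ventricle. Tpm1 and Tpm3 additionally encode cytoplasmic tropomyosins of non-muscle cells, made by alternative promoters and splicing.

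Promoters are shown for members that varied together across the arrays, since 5 slow and 5 fast probe sets each followed a common course, and for Tpm3, whose probe sets differed in direction and which has several listed starts. RefSeq sequences were held for 7 of the 10 genes, in 10 entries, and the 250 bases upstream of the start are given for 5 genes on the rat build GRCr8, read 5′ to 3′ on the gene's own strand. Capitals mark matches, on either strand, to an E-box (CANNTG, bound by MyoD-type factors), an MCAT element (CATTCC, bound by TEAD factors), a TATA box (TATAAA), and the MEF2 site and CArG box, which are given by name. Over all 33469 promoter windows of this length, 65.5% held an E-box, 12.1% an MCAT element, 12.9% a TATA box, 2.96% a MEF2 site and 1.5% a CArG box.
Tnni1, slow troponin I, chr13:49781279-49781528, plus strand: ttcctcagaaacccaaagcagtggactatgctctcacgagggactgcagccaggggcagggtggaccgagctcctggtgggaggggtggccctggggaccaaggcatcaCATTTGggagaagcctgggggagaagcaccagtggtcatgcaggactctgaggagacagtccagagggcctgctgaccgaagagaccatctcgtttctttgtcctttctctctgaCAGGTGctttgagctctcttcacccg
Myl3, slow essential light chain, chr8:119616844-119617093, plus strand: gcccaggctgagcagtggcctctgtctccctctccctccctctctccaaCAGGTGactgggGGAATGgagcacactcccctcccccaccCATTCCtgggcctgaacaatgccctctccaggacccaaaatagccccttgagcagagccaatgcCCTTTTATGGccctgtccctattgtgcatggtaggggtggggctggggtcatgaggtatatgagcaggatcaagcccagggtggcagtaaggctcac
Tpm3, slow tropomyosin, first listed start, chr2:177814633-177814882, plus strand: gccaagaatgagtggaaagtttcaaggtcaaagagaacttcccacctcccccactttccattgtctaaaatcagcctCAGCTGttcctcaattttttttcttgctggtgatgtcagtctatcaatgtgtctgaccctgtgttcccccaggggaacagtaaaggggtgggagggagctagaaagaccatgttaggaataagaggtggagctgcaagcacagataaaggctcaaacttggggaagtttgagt
Tpm3, second listed start, chr2:177821115-177821364, plus strand: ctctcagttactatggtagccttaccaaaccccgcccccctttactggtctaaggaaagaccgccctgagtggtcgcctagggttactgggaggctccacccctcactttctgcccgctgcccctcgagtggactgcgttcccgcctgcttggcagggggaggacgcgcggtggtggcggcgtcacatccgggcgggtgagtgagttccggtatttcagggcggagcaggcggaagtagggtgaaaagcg
Tnni2, fast troponin I, chr1:207024240-207024489, plus strand: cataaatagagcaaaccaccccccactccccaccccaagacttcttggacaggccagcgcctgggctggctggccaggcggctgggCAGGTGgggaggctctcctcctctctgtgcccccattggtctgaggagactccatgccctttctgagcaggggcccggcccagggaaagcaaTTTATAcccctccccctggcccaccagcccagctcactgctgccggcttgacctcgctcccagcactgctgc
Tpm1, fast tropomyosin, chr8:76543416-76543665, minus strand: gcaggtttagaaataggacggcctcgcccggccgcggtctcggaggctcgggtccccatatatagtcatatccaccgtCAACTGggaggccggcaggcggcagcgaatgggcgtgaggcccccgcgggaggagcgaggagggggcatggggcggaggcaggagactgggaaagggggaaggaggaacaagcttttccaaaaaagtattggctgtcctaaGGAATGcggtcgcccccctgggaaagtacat
The Myl3 window held 2 MCAT elements, 1 E-box and a CArG box 97 to 88 bases before the start. In the Tnni1 window 2 E-boxes were found and none of the other motifs. The Tnni2 window held 1 E-box and a TATA box, and the Tpm1 window 1 E-box and an MCAT element 31 to 26 bases before the start. The first Tpm3 window held 1 E-box, and in the window of the second start none of the 5 motifs was found. Each match is a description of letters and not of a bound site, and which Tpm3 start each probe set reads was not tested.

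Signals are the authors' MAS5 values in arbitrary units, scaled so that the trimmed mean of every array lay between 2503 and 2506, and arrays are named by group and replicate number. The differences below are log2 values with their standard errors from a limma fit on log2(signal + 16) over all 20 arrays, with Benjamini-Hochberg adjusted p-values over 6027 tests and a threshold of 0.05. 4 arrays stood out by control signals or over all probe sets. Among the members diabetic 5 also stood out, as the lowest diabetic array for 6 of 8 slow and 5 of 7 fast probe sets. Arrays normal 1, normal 3 and treated diabetic 1 had log2 ratios of the 3′ to the 5′ Gapdh control signal of 2.90, 2.91 and 3.94, against at most 1.31 on the other 17, a measure of RNA or target quality. On array treated diabetic 5, 187 probe sets (3.1% of those tested) were at least 8-fold below the median of the other 4 arrays of its group, and on the other 19 arrays this count ran from 0 to 155. Correlations between arrays over the tested probe sets ran from 0.683 (normal 2 with treated diabetic 5) to 0.968 (diabetic 1 with diabetic 3).

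Between treated and untreated diabetic muscle, most slow members were lower and most fast members higher. All 4 slow genes were lower with vanadyl sulfate (7 of 8 slow and 2 of 7 fast probe sets had negative differences, where 43.9% of all did), with a median of -1.55 over 1 probe set per gene, and 3 of the 4 fast genes were higher, with a median of 0.70, against 0.08 over all tested probe sets. The fast median was 0.04 under quantile normalization and the slow median -1.48. A single member passed the threshold, the probe set S82383_s_at of Tpm3, which fell by 1.36 ± 0.30 (SE). That is 1 of 15 members, where 0.498% of all tested probe sets passed. S82383_s_at is counted as slow by its gene symbol only. Which tropomyosin isoforms it reads is not stated, and it did not follow the other slow members closely (r = 0.375 to 0.576 with Tnni1, Myl2 and Myl3). At an unadjusted limma p under 0.05, 5 of 8 slow probe sets were lower, where 7.57% of all were. They were Tnni1, S82383_s_at of Tpm3 and all 3 of Myl2. At that level 3 of 7 fast probe sets were higher, where 8.78% of all were. They were Tnni2 and, for Tpm1, M15474cds_s_at and X02412_at. Probe sets of the same gene are not independent. At the same level 1 slow probe set, L24776_at of Tpm3, was higher and 1 fast probe set, M60666_s_at of Tpm1, was lower. In bulk muscle, a smaller share of slow fibres and less slow isoform RNA per fibre cannot be told apart.

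**Figure D1:**
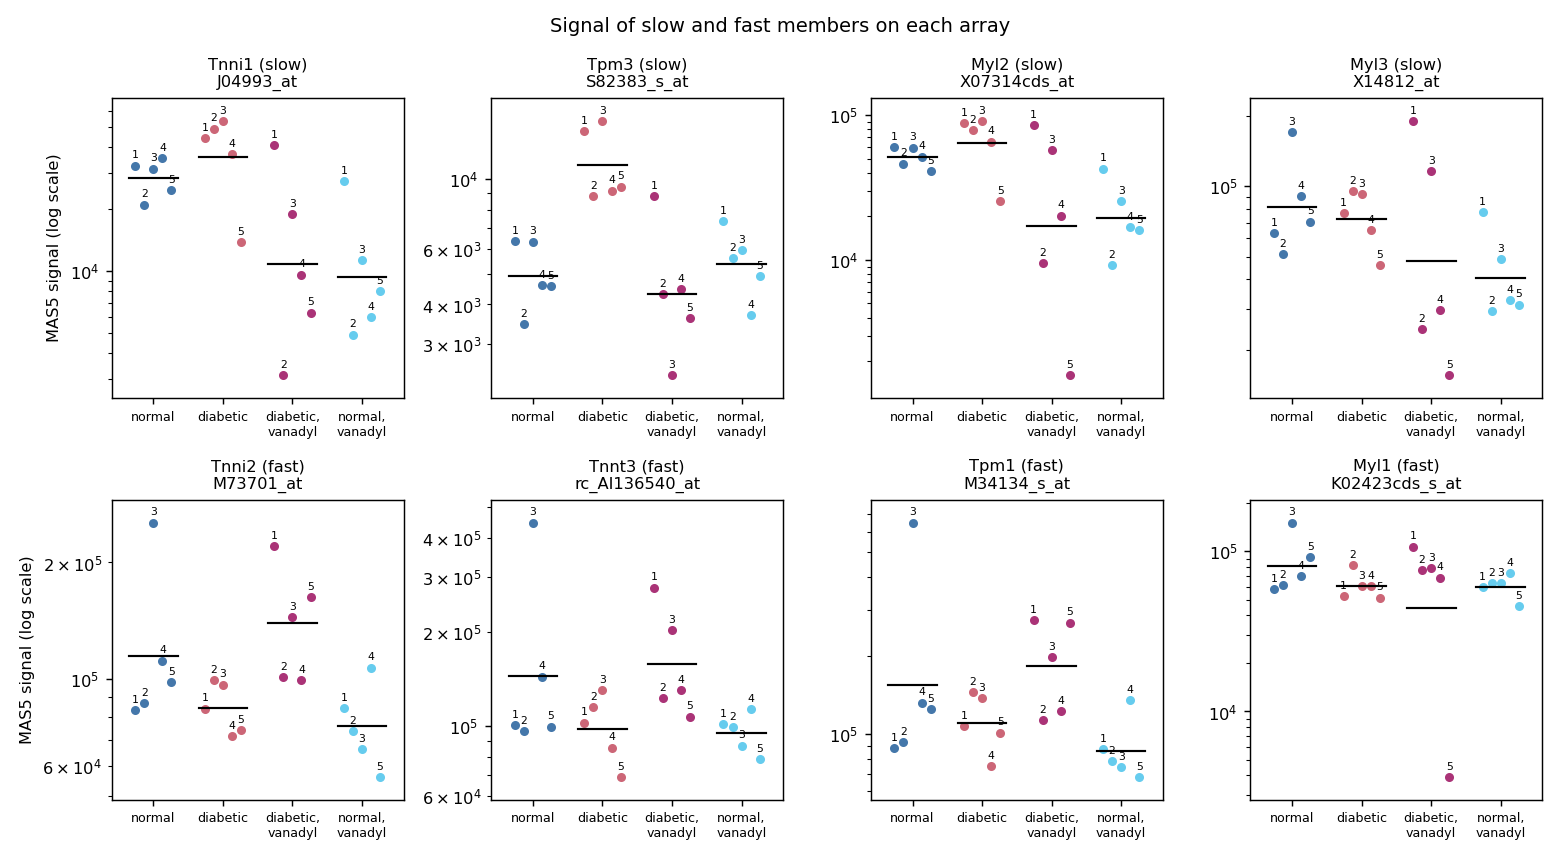
Signal of 8 member genes on each array, 1 probe set per gene, on a log axis in arbitrary MAS5 units. Points are arrays labelled with their replicate number, and the black line is the group's geometric mean (n = 5). The slow genes of the upper row spread widely among treated arrays, from 3122 to 41164 for Tnni1 in treated diabetic muscle, and normal 3 lies high for the fast genes of the lower row.

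Tnni1 encodes the slow troponin I, the inhibitory subunit. Its signals in replicates 1 to 5 were 32607, 21087, 31546, 35360.1 and 24712.5 in normal muscle and 44376, 49358, 53873, 37039.9 and 13821 in diabetic muscle. With vanadyl sulfate they were 41164, 3122, 18948, 9614.5 and 6282 in diabetic muscle and 27379, 4913, 11324, 5996.5 and 7995 in normal muscle. Replicate 1 was the highest of both treated groups, close to the untreated arrays, and 4 of 5 treated arrays of either kind lay below every normal array. Diabetic 5 stood below the other 4 diabetic arrays, and the treated and untreated diabetic groups overlapped. The difference was -1.73 ± 0.57 between treated and untreated diabetic muscle (limma adjusted p = 0.164) and -1.60 ± 0.57 between treated and untreated normal muscle (limma adjusted p = 0.413). Neither passed the threshold. The 2 treatment differences were alike in size, with an interaction of -0.13 ± 0.80. Its approximate 95% interval ran from -1.70 to 1.44. That interval uses the normal distribution and is somewhat narrower than one from limma's t-statistic. Diabetic and normal muscle differed by 0.33 ± 0.57 (adjusted p = 0.808). Without treated diabetic 1 the treatment difference in diabetic muscle was -2.22 (adjusted p = 0.0838).

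Tnni2, the fast troponin I, ran the other way in diabetic muscle. Its signals were 83217, 86861, 253410, 111731 and 98365 in normal and 84088, 99502, 96951, 71403 and 73974.5 in diabetic muscle. With treatment they were 220708, 101441, 144766, 99515 and 162868 in diabetic and 84485, 73719, 66224.5, 107201 and 56122 in normal muscle. The lowest treated diabetic array, replicate 4, was narrowly above the highest diabetic array, replicate 2, so those groups did not overlap, and normal 3 was far above the other normal arrays. Treated diabetic muscle was higher than untreated by 0.72 ± 0.30 (limma adjusted p = 0.248), and treated normal muscle lower than untreated by a log2 difference of -0.60 ± 0.30 (adjusted p = 0.54). The latter was -0.32 without normal 3 and -0.19 under quantile normalization, which forces all arrays to one distribution and put the former at 0.15. The interaction of 1.33 ± 0.42 did not pass after adjustment over all probe sets (limma adjusted p = 0.167) and was 0.34 under quantile normalization. Among the 7 fast probe sets, 2 had treated diabetic arrays wholly above the diabetic ones, Tnni2 and X02412_at of Tpm1, where 2.37% of all tested probe sets did.

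Tnnt3, the fast troponin T that ties the complex to tropomyosin, followed Tnni2. Its signals were 101154, 96519.8, 446594, 144064 and 99833 in normal muscle and 102671, 115254, 130715, 85517 and 68997 in diabetic muscle. In treated diabetic muscle they were 276778, 123073, 202546, 130659 and 107364, and in treated normal muscle 101851.5, 99273, 86757, 113386 and 78813. Normal 3 and treated diabetic 1 were the highest of the 20 arrays, and both are among the arrays with a high Gapdh ratio. The treatment difference was 0.68 ± 0.36 in diabetic muscle (limma adjusted p = 0.362) and -0.60 ± 0.36 in normal muscle (adjusted p = 0.609).

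The tropomyosins did not behave as single genes. Of 5 Tpm3 probe sets, 3 passed the filter, and they differed in opposite directions. The probe set S82383_s_at gave 6368, 3464, 6334.5, 4600.2 and 4567 in normal muscle and 14223, 8811, 15293, 9187 and 9467 in diabetic muscle. In treated diabetic muscle it gave 8824, 4324, 2388, 4474 and 3622.5, and in treated normal muscle 7353.5, 5606.5, 5964, 3697 and 4932. Every diabetic array was above every normal one. In treated diabetic muscle 4 of 5 arrays were below every diabetic array, within or below the range of normal muscle, and replicate 1 at 8824 was just above the lowest diabetic array, 8811. Such groups did not overlap for 1 of 8 slow probe sets in the comparison of diabetic with normal muscle, where 3.33% of all tested probe sets were wholly higher in diabetes. The difference between diabetic and normal muscle was 1.16 ± 0.30 (limma adjusted p = 0.0519), just outside the threshold. None of the 15 members was called in that comparison, where 1.83% of all tested probe sets were, and 1 slow and no fast member was higher at an unadjusted p under 0.05, where 9.14% of all were.

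The fall of S82383_s_at with treatment in diabetic muscle, -1.36 ± 0.30 (limma adjusted p = 0.0471), was just inside the threshold. In normal muscle treatment left a difference of 0.12 ± 0.30 (adjusted p = 0.92), and the interaction was -1.48 ± 0.43 (limma adjusted p = 0.152). Over the alternatives tried, the adjusted p of the fall ran from 0.00673 to 0.188 and its size from -1.62 to -1.15. Leaving out any one of 17 of the 20 arrays ended the call. It was kept without normal 2, normal 3 or treated diabetic 1, with adjusted p = 0.0491, 0.0398 and 0.0135. The suffix _s_at marks probe sets whose probes can match more than a single transcript, and the sources do not state which tropomyosin isoforms this one reads.

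S82383_s_at did not follow the other slow members closely. Over the 20 arrays its Pearson correlation with the Tnni1, Myl2 and Myl3 probe sets was 0.375 to 0.576, whereas those 5 correlated with each other at 0.77 to 0.969. The non-member genes most like it were Septin8, a cytoskeletal septin (r = 0.794), Cxcl13, a B-cell chemokine (0.787), Cd53, a leukocyte tetraspanin (0.782), and Aqp7, the glycerol channel of fat cells (0.782). The summed signal of 8 immune cell markers was 10132 to 15778 on normal arrays, 23442 to 91700 on diabetic arrays, 9167 to 21218 on treated diabetic arrays and 14420 to 20608 on treated normal arrays. Of the 7 tested immune markers, 3 rose in diabetes and 2 fell with treatment in diabetic muscle, among them Lyz2, the macrophage lysozyme, by 2.28 ± 0.45 (limma adjusted p = 0.0219), and none of the 8 was at 0. For 6 adipocyte markers the sums were 14987 to 26415, 32149 to 52729, 23036 to 34553 and 19017 to 24718 in the same order. Both sums were higher on every diabetic than on every normal array, as was S82383_s_at. Their part in its difference was not tested.

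Another Tpm3 probe set, L24776_at, gave 227, 137, 2456, 633.5 and 199 in normal muscle and 340.2, 95.7, 447, 204 and 162 in diabetic muscle. In treated diabetic muscle it gave 1054, 225, 1254, 421 and 1429, and in treated normal muscle 219, 184, 105, 271 and 92. Only 9 of the 20 arrays were above their array's 40th percentile, so it passed the filter on part of the arrays, and the groups overlapped. Treated diabetic muscle was higher than untreated by 1.63 ± 0.65 (limma adjusted p = 0.231), and the interaction was 2.87 ± 0.91 (limma adjusted p = 0.167). It ran with the fast members Tnni2, Tnnt3 and 3 Tpm1 probe sets, M34134_s_at, M15474cds_s_at and X02412_at (r = 0.792 to 0.887). It did not run with the fast members Myl1 (r = -0.109) and M60666_s_at of Tpm1 (r = -0.494). Its correlation with the slow Tnni1, Myl2 and Myl3 probe sets was -0.158 to 0.344. The non-member genes most like it were Myh4, the fast IIB myosin heavy chain (r = 0.902), Atp5f1e, an ATP synthase subunit (0.892), Pvalb, the calcium buffer of fast fibres (0.881), and Acta1, skeletal actin (0.877).

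A further Tpm3 probe set, rc_AA859305_s_at, spread from 316 to 1339.5 over all arrays, with a treatment difference of -0.28 ± 0.40 in diabetic muscle (adjusted p = 0.756). The other 2, both dim, were not tested. The probe set L24777_at was at 30.7 to 94.7 on all arrays, never above the 40th percentile. The probe set rc_AA818554_s_at was above it on 4 arrays, with normal muscle at 66.2 to 193, diabetic muscle at 108 to 722, and the treated groups at 88.7 to 894 (diabetic) and 124 to 191 (normal).

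**Figure D2:**
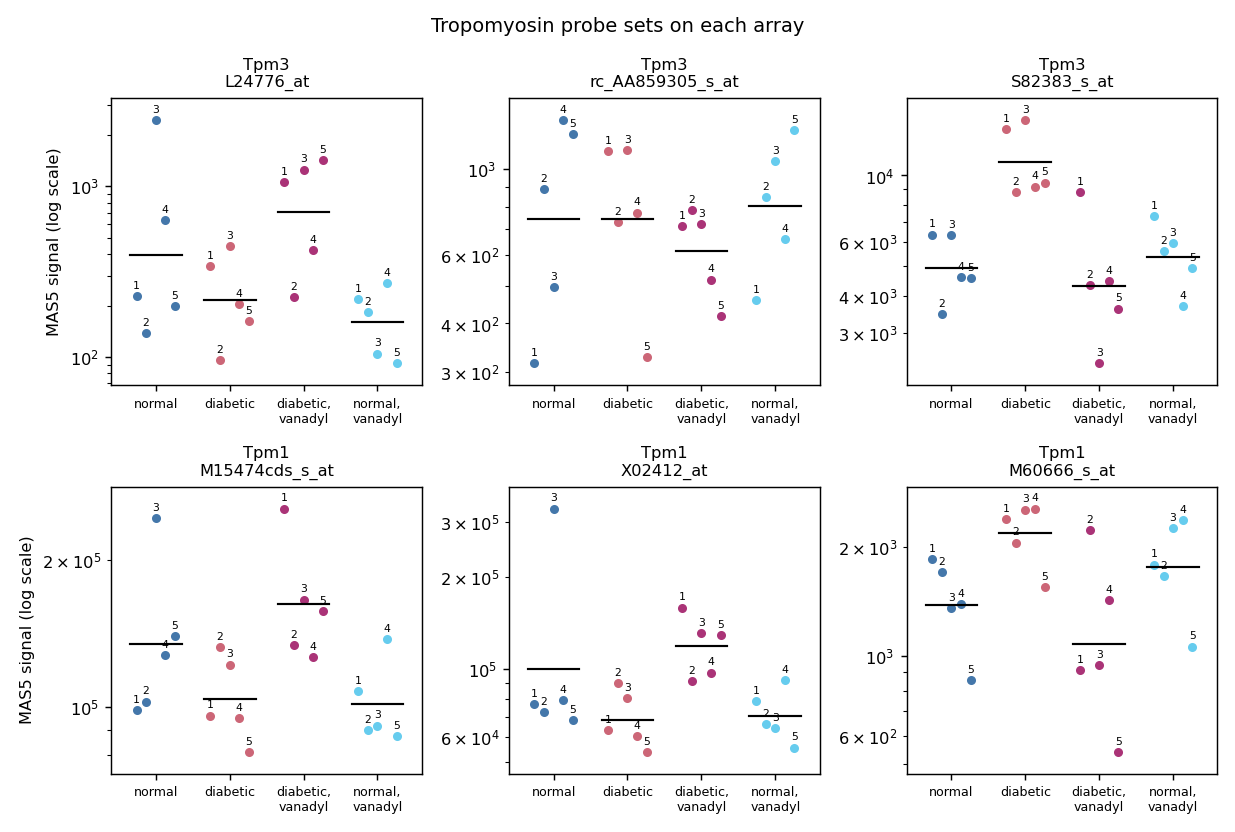
Signal of 6 tropomyosin probe sets on each array, on log axes in arbitrary MAS5 units, with Tpm3 above and Tpm1 below. Points are arrays labelled by replicate number and lines are geometric means (n = 5). S82383_s_at is highest in diabetic muscle (8811 to 15293), and X02412_at is higher on every treated diabetic array (91568 to 158496) than on every diabetic one. Between treated and untreated diabetic muscle the mean of M60666_s_at differs in the opposite direction to that of X02412_at. With group means removed their correlation is -0.0453.

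Tpm1 encodes the tropomyosin of fast fibres, and 4 of its 5 probe sets were tested. The brightest, M34134_s_at, gave 87916, 92606, 650064, 131679 and 124729 in normal and 107016, 144899, 137506, 75184 and 101089 in diabetic muscle. Treated diabetic muscle gave 273492, 112547, 197215, 121969.5 and 267957, and treated normal muscle 87165, 78559, 74492, 134759 and 68259.7. Normal 3 was 5.98-fold above the median of the other 4 normal arrays. Saturation of such bright probe sets could not be checked from these signals, which limits what the size of their folds means. The treatment difference was 0.72 ± 0.43 in diabetic muscle (limma adjusted p = 0.411) and -0.84 ± 0.43 in normal muscle (adjusted p = 0.562). The probe set X02412_at gave 76811, 72342, 332893, 79299.6 and 68086 in normal and 63391, 90024, 80568, 60618.5 and 53758.5 in diabetic muscle, and 158495.5, 91568, 130926, 97402 and 129004 in treated diabetic and 78651, 66085, 64399, 91918 and 55493 in treated normal muscle. Its treated diabetic arrays did not overlap with the diabetic ones, and its difference was 0.80 ± 0.35 (limma adjusted p = 0.263). For M15474cds_s_at the difference was 0.65 ± 0.26 (limma adjusted p = 0.245), with ranges of 81047 to 132729 in diabetic and 126568 to 254664 in treated diabetic muscle that overlapped slightly.

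The fourth Tpm1 probe set went against the other 3. M60666_s_at gave 1850.2, 1704, 1352, 1391 and 854 in normal muscle and 2389, 2057, 2540, 2557 and 1546 in diabetic muscle. In treated diabetic muscle it gave 912, 2226, 941, 1422 and 541, and in treated normal muscle 1787, 1661, 2252, 2371 and 1059. Most diabetic arrays were high, and 4 of 5 treated diabetic arrays were below all diabetic arrays, the exception being replicate 2, which lay within their range. The treatment difference in diabetic muscle was -1.001 ± 0.33 (limma adjusted p = 0.164), and diabetic and normal muscle differed by 0.65 ± 0.33 (adjusted p = 0.322). Its correlation with Tnni2, Tnnt3 and the other 3 Tpm1 probe sets was -0.481 to -0.268, and -0.278 to 0.0551 with group means removed. Its correlation with Myl1 was 0.416. The non-member genes most like it were Actb, cytoplasmic actin (r = 0.821), Pparg, the nuclear receptor of fat cells (0.801), Ywhaq, a phosphoserine-binding adaptor (0.771), and Ifitm3, an interferon-induced membrane protein (0.767). The remaining probe set, rc_AI144767_s_at, was dim on all arrays (20 to 222) and was not tested.

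Myl2, the slow regulatory light chain, had 3 probe sets that gave the same picture. X07314cds_at gave 59929, 46199.8, 59673.5, 51664.5 and 41259.7 in normal and 87797, 78751, 91243.5, 65607 and 25395 in diabetic muscle. With treatment it gave 85746, 9450.3, 57044, 20236 and 1600.5 in diabetic and 42740.4, 9206, 25447, 16864 and 16131.5 in normal muscle. The untreated groups were tight apart from diabetic 5, while the treated diabetic arrays spread over 53.6-fold. Treatment differences in diabetic muscle were -1.89 ± 0.74 (limma adjusted p = 0.230), -1.72 ± 0.70 (0.243) for X07314cds_g_at and -1.70 ± 0.60 (0.189) for M11851_at. In normal muscle they were -1.40 ± 0.74, -1.02 ± 0.70 and -0.56 ± 0.60 in the same order (adjusted p = 0.569, 0.642 and 0.786). Treated diabetic 5 was the lowest array for all 3, at 1600.5, 1340 and 1592. Without it the difference for X07314cds_at was -1.03 (adjusted p = 0.422).

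Myl3, the slow essential light chain, gave 63115, 51364, 170108, 90607 and 70657 in normal and 76858.5, 95694, 92511, 64886 and 45948 in diabetic muscle. With treatment it gave 190280.2, 24517.5, 116107, 29489 and 15616 in diabetic and 77608, 29203.5, 48707, 32609 and 31212 in normal muscle. The treated diabetic arrays were either high or low, with replicates 1 and 3 above every diabetic array and replicates 2, 4 and 5 below every one. The mean difference was therefore little larger than its standard error, -0.60 ± 0.54 (limma adjusted p = 0.594), and in normal muscle it was -0.99 ± 0.54 (limma adjusted p = 0.586). Without treated diabetic 5 the former was -0.20.

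Myl1, the fast essential light chain, gave 58392, 61723, 151355, 70005 and 91542 in normal and 52594, 81713, 60584, 60702 and 51468 in diabetic muscle. With treatment it gave 107151, 76450.3, 78199, 68640.2 and 3906 in diabetic and 59474, 63162, 63254, 73151 and 45362.5 in normal muscle. Treated diabetic 5 was 19.8-fold below the median of the other 4 arrays of its group, and this array set the sign of the difference, -0.45 ± 0.61 with it (limma adjusted p = 0.737) and 0.43 without it (adjusted p = 0.512). The same array was also the lowest of its group for Tnnt3 (107364 against 123073 to 276778) and M60666_s_at, but not for Tnni2 (162868) or the 3 bright Tpm1 probe sets (267957 for M34134_s_at). The partner of Myl1 in fast fibres, the regulatory chain Mylpf, appears on the array as Myl11. Its probe set X00975_at read 61060 on treated diabetic 5, below the other 4 arrays of the group, and X00975_g_at of the same gene read 174956 on that array, the third lowest of 5. Its treatment differences in diabetic muscle were 0.38 ± 0.43 and 0.77 ± 0.38 (limma adjusted p = 0.676 and 0.320).

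**Figure D3:**
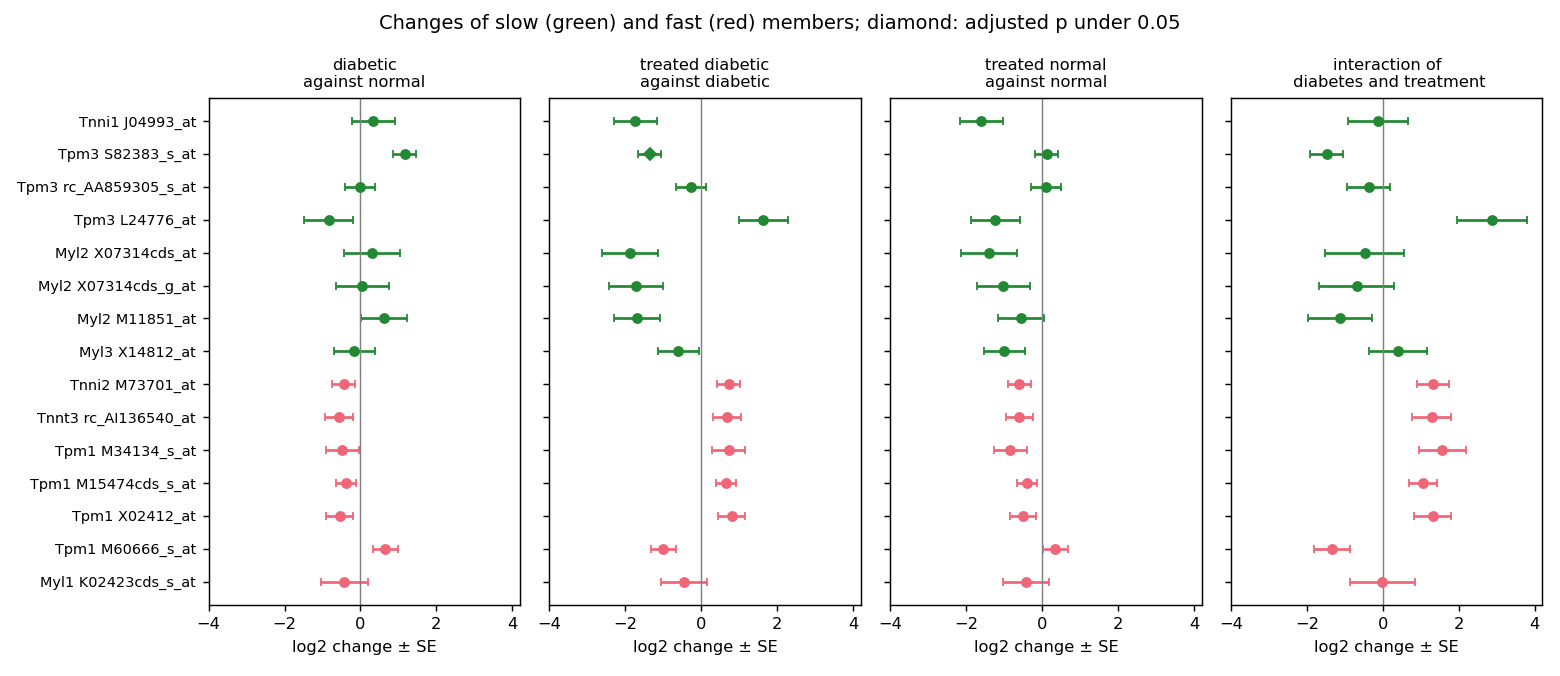
Log2 differences (points) and standard errors (bars) of the 15 tested members in 4 contrasts, with slow probe sets in green above and fast probe sets in red below. The diamond marks the only adjusted p under 0.05, S82383_s_at at -1.36 in treated against untreated diabetic muscle. With treatment, 7 of 8 slow members lie left of 0 in diabetic muscle and 6 of 8 in normal muscle, and 5 of 7 fast members lie right of 0 in diabetic muscle, with M60666_s_at and Myl1 on the left.

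In normal muscle, treatment was accompanied by lower values of both kinds. The median over 1 probe set per gene was -1.20 for slow and -0.60 for fast genes, against 0.18 over all tested probe sets, and 6 of 8 slow and 6 of 7 fast probe sets had negative differences, where 33.3% of all did. The fast median rested in part on normal 3 and on the scaling, at -0.26 without that array and -0.125 under quantile normalization. None of the 15 was called, where 0.0664% of all tested probe sets were, and 1 member, Tnni1, was lower at an unadjusted limma p under 0.05, where 1.89% of all were. The interaction of diabetes and treatment had a median of -0.31 for slow and 1.30 for fast genes, against -0.13 over all. No member was called in it, where 0.166% of all were. At an unadjusted limma p under 0.05, 6 of 15 were positive where 5.08% of all were, and 2 were negative where 8.2% were. The 6 were Tnni2, Tnnt3, L24776_at of Tpm3, and M34134_s_at, M15474cds_s_at and X02412_at of Tpm1, so some share a gene. The adjusted p-values of the interaction for Tnni2, L24776_at and S82383_s_at were 0.167, 0.167 and 0.152 (limma). The treatment comparisons share no arrays with each other, but the comparison of diabetic with normal muscle shares 1 group with each of them.

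Diabetic against normal muscle gave medians of 0.32 for slow and -0.47 for fast genes, against -0.06 over all tested probe sets. Fast members were lower for 6 of 7 probe sets, where 55.1% of all were lower, and the exception was M60666_s_at. Normal 3 carried much of that. It was the highest normal array for 6 of 7 fast probe sets, and without it the fast median was -0.16 and M34134_s_at was at 0.03. Treated diabetic muscle set against untreated normal muscle gave medians of -1.08 and 0.18, with no member called (0% of all tested), and against treated normal muscle 0.02 and 0.80, likewise with none called (0% of all tested). At an unadjusted limma p under 0.05, 3 members (Tnni1 and 2 Myl2 probe sets) were lower in the former, where 6.49% of all were. In the latter 5 were higher, where 5.53% were, and M60666_s_at was lower, where 12.3% were.

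**Figure D4:**
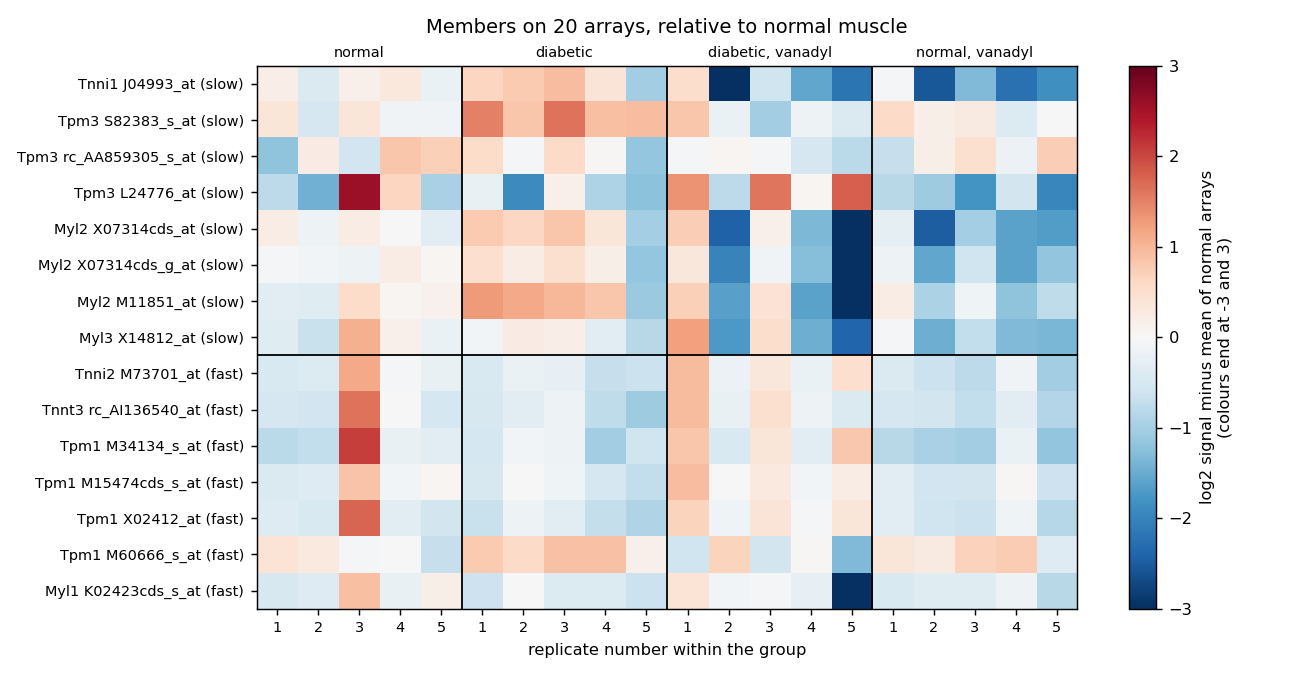
Log2 signal of each tested member on each array minus the mean of the 5 normal arrays, with columns in order of group and replicate and colours ending at -3 and 3. Most slow rows are pale to red in diabetic muscle, apart from replicate 5, and blue on most treated arrays except replicate 1, and the fast rows are reddest on normal 3 and treated diabetic 1. Myl2 and Myl1 are darkest on treated diabetic 5.

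Part of the members followed a slow and a fast course over the arrays. Tnni1, Myl3 and the 3 Myl2 probe sets correlated at 0.77 to 0.969 (10 pairs, n = 20 arrays), and still at 0.7 to 0.972 after removal of group means. Tnni2, Tnnt3 and the 3 bright Tpm1 probe sets correlated at 0.873 to 0.961, and at 0.837 to 0.959 within groups. The Tpm3 probe sets, M60666_s_at of Tpm1 and Myl1 were placed in neither course. The fast member Myl1 correlated at 0.0314 to 0.392 with the fast course and at 0.33 to 0.79 with the slow one. Pairs across the courses ran from -0.122 to 0.621, and from -0.0744 to 0.76 within groups, so the highest of them exceeded the lowest pair inside the slow course. These are descriptions of probe sets measured on the same arrays, which share scaling and target quality. Relative to the normal arrays, the mean of 4 slow genes ran from -0.44 to 0.45 in normal muscle and from -2.50 (replicate 5) to 0.83 (replicate 1) in treated diabetic muscle. The slow mean minus the fast mean was 0.26 to 1.24 on diabetic arrays and -1.65 to 0.06 on treated diabetic arrays, and it was -0.99 to 0.67 on normal and -1.20 to 0.60 on treated normal arrays. In this measure every diabetic array was above every treated diabetic one, narrowly so for diabetic 5 (0.26) and treated diabetic 1 (0.06). The members were chosen with earlier results known, and how often other sets of genes separate these groups was not computed. The fast part of the measure depended on scaling.

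**Figure D5:**
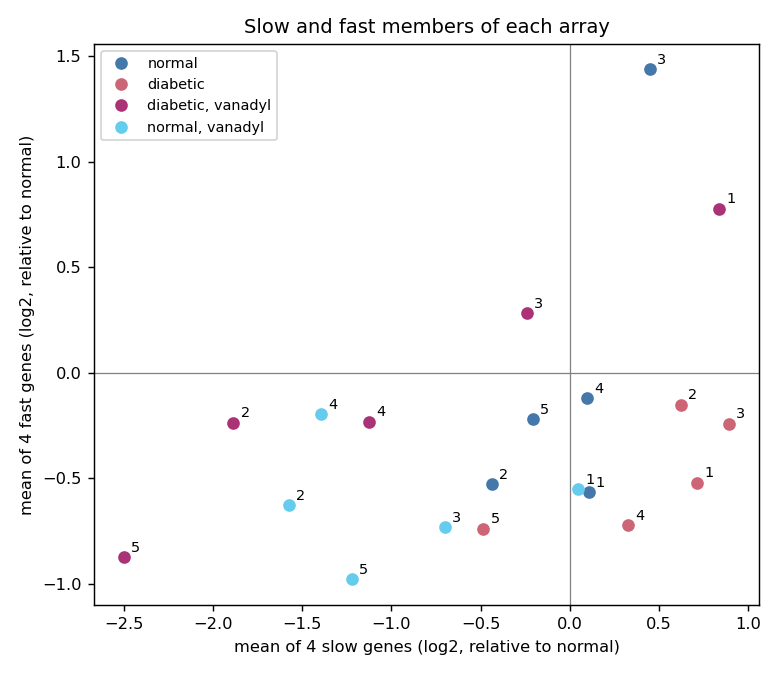
Mean of 4 fast genes against the mean of 4 slow genes on each array, in log2 units relative to the 5 normal arrays, with replicate numbers beside the points. On the slow axis 4 of 5 diabetic arrays lie right of 0 and replicate 5 lies at -0.49, left of every normal array, and 4 of 5 treated diabetic and 4 of 5 treated normal arrays lie left of 0, with replicate 1 of both groups to the right of the others.

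Of 3574 other genes, those most like the slow mean were Myh7, the slow myosin heavy chain (r = 0.936), Myh6, its cardiac relative (0.921), Atp2a2, the slow calcium pump (0.886), Ldhb, the heart-type lactate dehydrogenase subunit (0.869), Rrad, a small GTP-binding protein (0.828), and Actn2, the alpha-actinin of slow fibres and heart (0.796). Most like the fast mean were Myl11 (0.988), Atp2a1, the fast calcium pump (0.951), Atp5f1b, an ATP synthase subunit (0.911), Tnnc2, fast troponin C (0.891), Pkm, muscle pyruvate kinase (0.881), and Ckm, muscle creatine kinase (0.879). The Myh7 and Myh6 probe sets carry the suffix _f_at, given to probes shared within a gene family.

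In the lists of other fibre type genes no gene passed the test. Of 5 tested slow fibre genes, 0 were called in treated against untreated diabetic muscle by limma, all 5 were lower (median -1.12), where 43.9% of all tested probe sets were, and 4 had an unadjusted p under 0.05. The largest differences were those of Csrp3, a mechanosensing protein at the Z-disc (-1.81 ± 0.53, adjusted p = 0.122), and Casq2, the calcium store protein of slow fibres and heart (-1.70 ± 0.51, adjusted p = 0.122). Of 8 tested fast fibre genes, 0 were called, 7 were higher (median 0.56) and 3 had an unadjusted p under 0.05, led by Myh1, the fast IIX myosin heavy chain (1.04 ± 0.36, adjusted p = 0.182). Among 10 sarcomere genes of both fibre types and 5 regulators of fibre type none was called, with 3 and 0 at an unadjusted p under 0.05. The developmental list differed. Of its 5 tested genes 1, embryonic myosin heavy chain Myh3, rose in diabetes by 2.57 ± 0.52 (limma adjusted p = 0.0155) and with treatment of diabetic muscle it fell by 2.34 ± 0.52 (limma adjusted p = 0.0471).

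Whether array quality bears on the slow members was not tested. The 3 arrays of high Gapdh ratio, normal 1, normal 3 and treated diabetic 1, had slow means of 0.105, 0.447 and 0.834. Normal 1 had a beta-actin ratio of 3.01. Treated diabetic 4 had a beta-actin ratio of 2.40 and a slow mean of -1.13. Treated diabetic 1 was also the highest of its group for 6 of 7 fast probe sets. Replicate 1 was the highest array of both treated groups for 6 of 8 slow probe sets. Those 2 arrays also had the highest 3′ to 5′ ratio of beta-actin in their groups, 2.61 and 2.10 on the log2 scale. Without the 3 arrays of high Gapdh ratio, the slow median in treated against untreated diabetic muscle was -1.92 and the fast median 0.52. S82383_s_at was then at -1.62 (limma adjusted p = 0.013) in that comparison, and at 1.40 (limma adjusted p = 0.0112) in diabetic against normal muscle, past the threshold. The control ratios did not pass a two-sided exact permutation test in any of 10 comparisons of groups, with p from 0.0635 to 0.929 and adjusted p from 0.318 to 0.929. The fast differences depended on scaling. Under quantile normalization M34134_s_at was at -0.001 in treated against untreated diabetic muscle.

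The tissue label was checked against marker genes. The skeletal muscle markers Acta1, Ckm, Des and Cacna1s were above the 40th percentile on all 20 arrays. Of 7 cardiac markers, 2, Myh6 and Myl7, were above it on all 20 arrays. Tnnt2 was above it on 17 arrays, Tnni3 on 11, Ryr2 on 9 and Nppa on 8. Nppb, the natriuretic peptide of stressed heart muscle, was above it on none.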

How the data were processed

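Poly(A) RNA of rat rear leg muscle was labelled with biotin and hybridised to 20 Affymetrix arrays, per the labels' protocols. The deposited values are signal intensities. The authors computed these with MAS5 (named in the submitters' processing notes, version not given in the sources used here). Deposited intensity values average 2503 to 2506 on every array after 2% was trimmed at each end. All 20 value columns were matched to samples by their labels, with 0 left over. Control probe sets (59) were left out. A probe set was tested when above its array's 40th percentile on at least 5 of 20 arrays, which kept 6027 of 8799 (69%). Of the 8799, 7006 carried 1 gene symbol, 308 several, 1426 were not listed in the platform annotation.

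Group means were fitted to log2(signal + 16) with limma 3.58.1 in R 4.3.3 (lmFit and eBayes) over all 20 arrays, with Benjamini-Hochberg adjustment and a threshold of 0.05, two-sided, for 6 comparisons. Fold changes on this scale understate differences of dim probe sets. The scripts were tested on simulated data. A gene with several probe sets was represented in medians by the one of highest mean signal. All member probe sets are named, and other genes come from fixed lists, at most 4 of smallest p per list, or are those most correlated with the members over the arrays. The members and lists were chosen with earlier results of these data known. Replicate numbers were not treated as pairs in the main fit. Deviations of same-numbered arrays correlated at -0.281 to 0.616 (median 0.0701), above 0.1 in 11 of 30 pairs. For arrays of different numbers this was -0.495 to 0.407 (median 0.0038), above 0.1 in 33 of 120 pairs. The median and the share above 0.1 were thus somewhat higher for same-numbered arrays, a difference that was not tested. Alternatives were other pseudocounts, no filter, quantile normalization, median centring, separate fits, the replicate block, control ratios as covariates, and leaving out arrays. The number of arrays limits the precision. Promoters came from RefSeq on GRCr8, and names from the platform annotation with symbols as listed.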

Additional observations from a re-analysis of the deposited data

Results flagged for a closer look

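In 9 of 60 groups of 5 arrays checked (15 tested members in 4 groups), 1 array lay apart by Dixon's criterion at the 95% level. Chance sets apart about 1 in 20 groups, and probe sets of one course are not independent. Array diabetic 5 was below the other 4 diabetic arrays for the slow members Tnni1 (13821 against 37039.9 to 53873) and Myl2 (25395 against 65607 to 91244 for X07314cds_at, 23870.5 against 60375 to 75053 for X07314cds_g_at, and 7124 against 27844 to 37392 for M11851_at). Array normal 3 was above the other 4 normal arrays for the fast members Tnni2 (253410 against 83217 to 111731), Tnnt3 (446594 against 96519.8 to 144064) and Tpm1 (650064 against 87916 to 131679 for M34134_s_at, and 332893 against 68086 to 79299.6 for X02412_at). Array treated diabetic 5 read 3906 for Myl1, against 68640.2 to 107151 on the other 4.

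For 5 probe sets the treated arrays lay on opposite sides in diabetic and normal muscle, every treated array lying above the untreated mean in diabetic muscle and below it in normal muscle. Without normal 3 in the mean this held for 0 of the 5, with 3 or 4 of the 5 treated normal arrays below it. The interaction on the log2 scale was 2.87 for L24776_at of Tpm3, 1.33 for Tnni2, 1.28 for Tnnt3, 1.56 for M34134_s_at and 1.31 for X02412_at of Tpm1. None passed in the limma fit after adjustment, with adjusted p = 0.167, 0.167, 0.293, 0.276 and 0.258 in that order. Without normal 3 the 5 values were 2.23, 1.04, 0.87, 1.05 and 0.87, and under quantile normalization 3.30, 0.34, 0.052, 0.22 and 0.44.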

How the results depend on the processing

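The count of members past the threshold rests on S82383_s_at of Tpm3. In treated against untreated diabetic muscle it went from 1 to 0 with a pseudocount of 1, without the filter, with quantile normalization, with arrays centred on their median and with only the groups compared in the fit (limma adjusted p = 0.0513, 0.075, 0.0895, 0.0788 and 0.129). Leaving out 1 array at a time gave 0 to 1. In diabetic against normal muscle the count went from 0 to 1 with a higher pseudocount, with the Gapdh ratio as a covariate and with the 3 high-Gapdh arrays left out (limma adjusted p = 0.0338, 0.00782 and 0.0112), and leaving out 1 array gave 0 to 1, with the call made without normal 1 and without treated diabetic 1, 3 or 5. The replicate block also gave 1 there (limma adjusted p = 0.0406) and left the count at 1 in treated against untreated diabetic muscle. Over all tested probe sets, 6 of 20 arrays correlated best with an array of their own number, and how many would by chance was not computed. The slow means of replicates 1 to 5 were 0.834, -1.885, -0.241, -1.127 and -2.497 in treated diabetic muscle. In treated normal muscle they were 0.047, -1.575, -0.702, -1.395 and -1.22, with replicates 1 and 3 highest in both groups. Whether replicate numbers mark a shared batch was not tested. In the other 4 comparisons no alternative called a member.

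Under quantile normalization the fast median was 0.039 in treated against untreated diabetic muscle and also against treated normal muscle, and 0.137 in the interaction. With the Gapdh ratio as a covariate the interaction's fast median was 0.793 and its slow median -1.14, and with both ratios 0.641 and -1.23. The slow median in treated against untreated diabetic muscle was negative under all 32 alternatives, from -1.92 to -1.17, and no result changed sign while called. Dim probe sets (L24776_at among the members) sit near background. Over all probe sets, calls in diabetic against normal muscle ran from 24 to 464 (main 110), in treated against untreated diabetic muscle from 10 to 59 (main 30), in treated against untreated normal muscle from 0 to 7 (main 4), in treated diabetic against normal muscle from 0 to 359 (main 0), in treated diabetic against treated normal muscle from 0 to 109 (main 0) and in the interaction from 1 to 22 (main 10). The cause of these changes was not tested.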

Other observations

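Markers of other cell types gave no further call among the lists not yet named. In treated against untreated diabetic muscle, 0 of 6 tested cardiac genes were called by limma and 3 had an unadjusted p under 0.05: Tnnt2, troponin T of heart and developing muscle (-1.81 ± 0.65, adjusted p = 0.193), Tnni3, cardiac troponin I (-1.05 ± 0.42, adjusted p = 0.238), and Myh6. Summed cardiac marker signal, dominated by Myh6, was 28541 to 66828 on normal arrays and 23020.3 to 64849 on diabetic arrays, and with treatment 7158 to 54004 (diabetic) and 16766 to 41713 (normal). Of 4 skeletal muscle, 5 smooth muscle, 3 endothelial, 6 fibroblast, 2 nerve and 2 blood cell genes tested there, 0 were called by limma and 1, Myl9 of smooth muscle, had an unadjusted p under 0.05. Of 5 adipocyte genes 1 fell, Cidea, a lipid droplet protein (-2.29 ± 0.33, limma adjusted p = 0.00299).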
